A study of Mus musculus with 6 samples.

Results

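The Zfp symbols name mouse genes for zinc finger proteins, and the 266 described here are the well expressed ones: those of 387 symbols made of Zfp, a number and at most 1 letter whose mean reached 5 CPM (read counts per 1000000 counts of the library) over the 6 libraries. The rule uses that mean level alone, from a count table of 27482 gene symbols, and the set was proposed with earlier results of these data known. Their mean levels ran from 5.06 to 279 CPM with a median of 19.0. The 2 members nearest the minimum were Zfp189 (5.06 CPM) and Zfp658 (5.12 CPM), and the 2 symbols nearest below it were Zfp839 (4.97 CPM) and Zfp119a (4.95 CPM). All 266 passed the low-count filter of the test.

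The libraries were labelled as heart of mice that had undergone I/R (ischemia/reperfusion, a temporary stop of blood flow to the heart), taken 24 h afterwards. In 3 libraries the mice carried AAV9-hFNDC4, a serotype 9 adeno-associated virus for overexpression of FNDC4, a protein with a fibronectin type III domain, and in the other 3 they carried a control virus, AAV9-CTRL. All 6 therefore share the vector type and the injury, and no group without either was analysed. The promoter of the vector, the strain, age and sex of the mice and whether each library is 1 animal are not given in these sources. The p-values therefore rest only on how far these libraries vary. Neither the mouse gene Fndc4 nor the level of the overexpressed FNDC4 was analysed here. Counts are by mouse gene symbol, and whether they include transcripts of the vector was not tested.

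Total counts per library ran from 32975817 to 36074046. Symbols with at least 1 count numbered 18717 to 18863 in the AAV9-hFNDC4 libraries and 20431 to 20870 in the AAV9-CTRL libraries, and the part of this difference in the results below was not tested. The labelled tissue was set against marker lists. Of 13 cardiomyocyte markers, 3 reached 1 CPM, and the summed level of the list was 45.2 to 46.6 CPM in AAV9-hFNDC4 and 58.3 to 59.0 CPM in AAV9-CTRL. Most of that sum came from Tnnt2, cardiac troponin T, with means of 38.1 and 51.7 CPM, and Ttn and Myh7 followed at 4.62 and 3.90 CPM and at 2.06 and 1.09 CPM. The other 10 were under 1 CPM, with Nkx2-5 and Pln at 0. These cardiomyocyte values do not bear out the label of heart, and which cells the libraries hold was not tested. Of 8 endothelial markers 2 reached 1 CPM, with sums of 2.08 to 3.55 and 3.41 to 5.59 CPM and Emcn at 0. Of 10 leukocyte markers 3 did, with sums of 11.5 to 13.9 and 29.6 to 33.7 CPM. Most of the leukocyte sum came from Cd68, with means of 11.7 CPM in AAV9-hFNDC4 and 27.9 CPM in AAV9-CTRL. Ptprc was at 0.09 CPM in both groups. Of 7 fibroblast markers measured, 4 reached 1 CPM, and the list summed to 2614 to 3172 CPM in AAV9-hFNDC4 and 1782 to 2225 CPM in AAV9-CTRL. These 4 were Col1a1, Col1a2, Col3a1 and Pdgfra, and Dcn, Lum and Postn were under 1 CPM. Of 5 mural cell markers 2 did, Pdgfrb and Cspg4, with sums of 531 to 594 and 296 to 358 CPM. Rgs5, Myh11 and Acta2 were under 1 CPM. The part that the differences in these lists have in the results below was not tested.

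Most zinc finger proteins of the C2H2 type bind DNA through a row of fingers, each a short loop in which cysteines and histidines hold a zinc ion. In many of them the fingers follow a KRAB box, which recruits the corepressor TRIM28 and through it heterochromatin enzymes, and these proteins are best known for silencing retroelements and for keeping imprints. Other proteins with a Zfp symbol have few fingers and work on RNA, on ribosomes or in ubiquitin signalling.

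Coding sequences were found for 262 members, and 128 of their proteins held a KRAB pattern and 134 did not. The pattern is strict and misses some KRAB proteins, Zfp932 among them. The number of C2H2 finger patterns per protein ran from 0 to 41.

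The 4 promoters printed here belong to members that moved most: for each direction the 2 with the largest called change whose stretch upstream of the RefSeq transcription start lies mostly outside annotated exons. Each was taken from RefSeq on build GRCm38.p6, as 250 bases upstream of the start, and was shortened where an exon of any GENCODE transcript reached into it. The member with the largest fall, Zfp36, is not shown, because all of its upstream stretch lies in an exon of another annotated transcript. The sequences are written 5′ to 3′ along the gene's strand. The positions are chr15:25984116-25984365 on the plus strand for Zfp622 (250 bases), chr8:82774161-82774395 on the minus strand for Zfp330 (235 bases), chr13:67127978-67128226 on the plus strand for Zfp759 (249 bases) and chr4:34882961-34883198 on the minus strand for Zfp292 (238 bases). The stretch for Zfp759 lies within the span of the gene in GENCODE, downstream of the start of another of its transcripts. Capitals mark matches, on either strand, to 6 short motifs: the E-box and hypoxia core ACGTG, the cAMP response core TGACG, the ETS core CCGGAA, the YY1 core GCCAT, the GC box CCGCCC and the TATA box TATAAA.
Zfp622: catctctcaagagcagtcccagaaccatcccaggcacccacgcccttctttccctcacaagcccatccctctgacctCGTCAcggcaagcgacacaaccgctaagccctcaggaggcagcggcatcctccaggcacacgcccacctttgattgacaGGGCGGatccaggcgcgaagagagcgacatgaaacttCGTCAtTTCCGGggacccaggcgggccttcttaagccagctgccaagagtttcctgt
Zfp330: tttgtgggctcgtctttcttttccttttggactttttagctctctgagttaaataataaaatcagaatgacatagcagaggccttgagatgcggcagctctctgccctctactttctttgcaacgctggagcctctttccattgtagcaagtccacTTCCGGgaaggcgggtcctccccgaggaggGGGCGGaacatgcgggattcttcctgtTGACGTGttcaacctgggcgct
Zfp759: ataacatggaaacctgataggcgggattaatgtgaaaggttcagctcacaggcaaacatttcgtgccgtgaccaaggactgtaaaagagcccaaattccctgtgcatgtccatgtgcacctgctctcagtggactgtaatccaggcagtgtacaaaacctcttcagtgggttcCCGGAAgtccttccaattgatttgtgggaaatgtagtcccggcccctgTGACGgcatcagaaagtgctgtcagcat
Zfp292: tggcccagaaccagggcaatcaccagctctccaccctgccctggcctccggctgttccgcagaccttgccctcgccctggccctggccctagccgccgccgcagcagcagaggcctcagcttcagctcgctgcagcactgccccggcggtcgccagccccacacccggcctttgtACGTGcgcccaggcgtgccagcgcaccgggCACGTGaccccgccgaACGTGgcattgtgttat

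The Zfp292 promoter held 4 matches to ACGTG, because CACGTG reads the same on both strands and counts on each. No other of the 6 motifs was found in it. The Zfp622 promoter held 1 CCGGAA, 1 CCGCCC, the box bound by SP and KLF factors, and 2 matches to TGACG. The Zfp330 promoter held 1 match each to CCGGAA and to CCGCCC, and 1 each to TGACG and ACGTG, which overlap there. The Zfp759 promoter held 1 TGACG and 1 CCGGAA. A match is a description of letters and not a site of binding.

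Promoters of 250 bases upstream of the RefSeq start, not shortened, were found for 221 members. CCGGAA was present in 31.7% of them, against 25.1% of the promoters of all genes of at least 5 CPM and 12.2% of all promoters in the table. CCGCCC was present in 43.9% of members, against 61.1% and 32.9%. GCCAT was present in 44.2% of promoters of members with the KRAB pattern and 27.6% of those without, against 28.8% of genes of at least 5 CPM. The shares for ACGTG were 20.4% of members and 23.0% of genes of at least 5 CPM, those for TGACG 27.1% and 28.7%, and those for TATAAA 4.98% and 5.71%. Member promoters had a median GC content of 54.4% and a median of 11 CpG dinucleotides, against 60% and 16 for genes of at least 5 CPM. No test was made of these shares.

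The comparison asked which Zfp transcripts differed in level between the libraries labelled AAV9-hFNDC4 and those labelled AAV9-CTRL. Of the 266 members, 128 were higher with AAV9-hFNDC4, 18 were lower and 120 were not called, by edgeR's quasi-likelihood test at a Benjamini-Hochberg adjusted p under 0.05 over the 14663 genes tested. That is 48.1% of members higher and 6.77% lower, where 22.1% of all genes tested were higher and 25.0% were lower. Among the 10470 genes that reached the same 5 CPM minimum, 25.1% were higher and 28.3% lower. The median log2 fold change was 0.34 over the members, 0.01 over all genes tested and -0.02 over genes of at least 5 CPM.

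In 145 members every AAV9-hFNDC4 library was above every AAV9-CTRL library, in 25 every one was below, and in 96 the groups overlapped. Over all genes tested these separations made up 27.1% and 29.5%. By more than 2-fold, 25 members (9.40%) were called higher and 2 (0.752%) lower, where 4.75% and 3.77% of genes of at least 5 CPM were. These are bulk samples, so more cells that carry a transcript and more of it per cell cannot be told apart.

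The shift was seen library by library. Relative to the mean of the controls, the median member stood at 0.35, 0.42 and 0.34 on the log2 scale in the AAV9-hFNDC4 libraries and at 0.09, -0.02 and -0.05 in the AAV9-CTRL libraries. The summed level of all members was 8548, 9285 and 8625 CPM in AAV9-hFNDC4 and 7726, 7300 and 7209 CPM in AAV9-CTRL. The groups did not overlap in either measure, and the sums came to 8819 ± 405 and 7412 ± 276 CPM (mean ± SD, n = 3 each).

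Library scaling moved the members and the whole table together. With plain library totals in place of trimmed-mean (TMM) factors, the median over all genes tested rose from 0.01 to 0.17, and the calls over all genes became 4406 higher and 2733 lower, from 3240 and 3668. The members' calls became 159 higher and 11 lower, and their median 0.50. The difference between the members' median and that of all genes was 0.33 with either scaling.

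**Figure D1:**
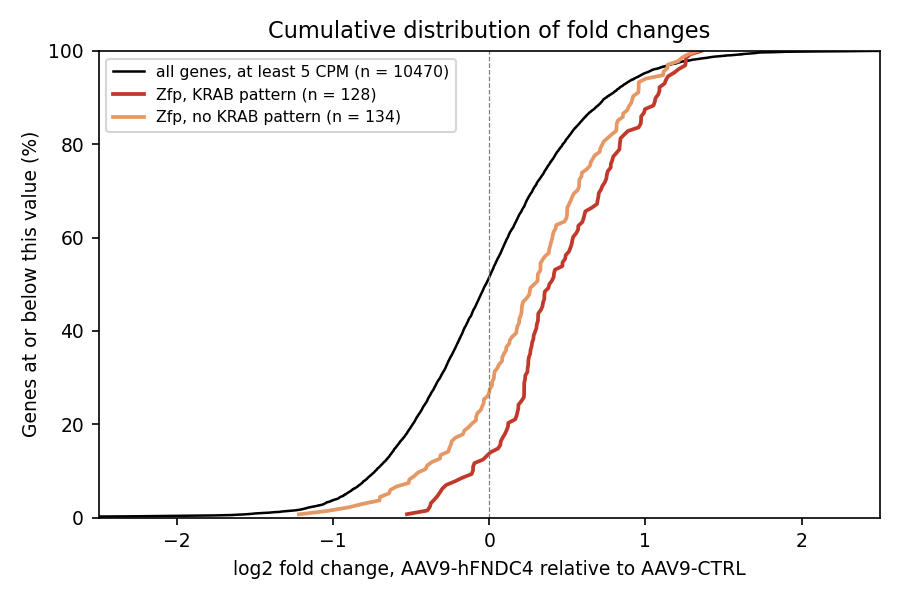
Cumulative share of genes (vertical axis, %) at or below each log2 fold change of AAV9-hFNDC4 relative to AAV9-CTRL (horizontal axis), for Zfp members with the KRAB pattern, members without it and all genes of at least 5 CPM. Up to a log2 fold change of about 1 both Zfp curves lie to the right of the curve for all genes, with medians of 0.39 and 0.30 against -0.02.

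Both KRAB classes held more higher than lower members. Of the 128 with the pattern, 68 were higher and 3 were lower, with a median log2 fold change of 0.39. The 3 were Zfp747 (-0.53), Zfp868 (-0.35) and Zfp869 (-0.33), named after their values were seen. Of the 134 without it, 59 were higher and 15 lower, with a median of 0.30. That is 53.1% higher and 2.34% lower with the pattern and 44.0% and 11.2% without. Among genes of at least 5 CPM 25.1% were higher and 28.3% lower. Lower members with the pattern numbered 0 without AAV9-hFNDC4 replicate 1 or 3 or AAV9-CTRL replicate 1, and 1 without AAV9-CTRL replicate 3. They numbered 5 if replicate 2 of either group was left out, and 8 after the correction for GC content described below. With plain library totals the counts were 84 and 0 with the pattern and 73 and 11 without. The difference between these classes was not tested.

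The members were also grouped by their number of C2H2 finger patterns, and the medians went up from class to class. Of 13 members with at most 1 C2H2 pattern, 5 were higher and 5 lower, with a median log2 fold change of 0.00. With 2 to 5 patterns 12 of 34 were higher and 7 lower (median 0.12), with 6 to 10 patterns 32 of 78 were higher and 4 lower (0.26), and with 11 to 15 patterns 41 of 82 were higher and 1 lower (0.37). At 16 or more, 37 of 55 were higher and 1, Zfp35, was lower, with a median of 0.70. The shares higher and lower were 38.5% and 38.5% with at most 1 pattern and 35.3% and 20.6% with 2 to 5. They were 41.0% and 5.13% with 6 to 10, 50% and 1.22% with 11 to 15, and 67.3% and 1.82% at 16 or more. Among genes of at least 5 CPM they were 25.1% and 28.3%. Without AAV9-CTRL replicate 3, higher members numbered 7 of 34 with 2 to 5 patterns and 21 of 78 with 6 to 10. Among the 18 lower members 12 had at most 5 patterns, as had 47 of the 262 members with a coding sequence.

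Each KRAB class was then divided by finger number. Without the pattern, members with at most 5 fingers counted 14 higher and 12 lower of 42 (median 0.01). That is 33.3% and 28.6%, where 25.1% and 28.3% of genes of at least 5 CPM were. Also without the pattern, members with 6 to 10 fingers counted 16 and 2 of 42 (0.19). Those with 11 or more counted 29 and 1 of 50 (0.46). With the pattern, those with 6 to 10 fingers counted 16 higher and 2 lower of 36 (0.31), and those with 11 or more counted 49 and 1 of 87 (0.51). Only 5 members with the pattern had at most 5 fingers, of which 3 were higher and 0 lower (0.34). Across the 262 members Spearman's rho between finger number and log2 fold change was 0.38. All members are measured in the same 6 libraries. Members with at most 1 pattern had a median transcript length of 2790 bases and GC content of 52.3%, and those with 16 or more had 4140 bases and 41.4%.

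**Figure D2:**
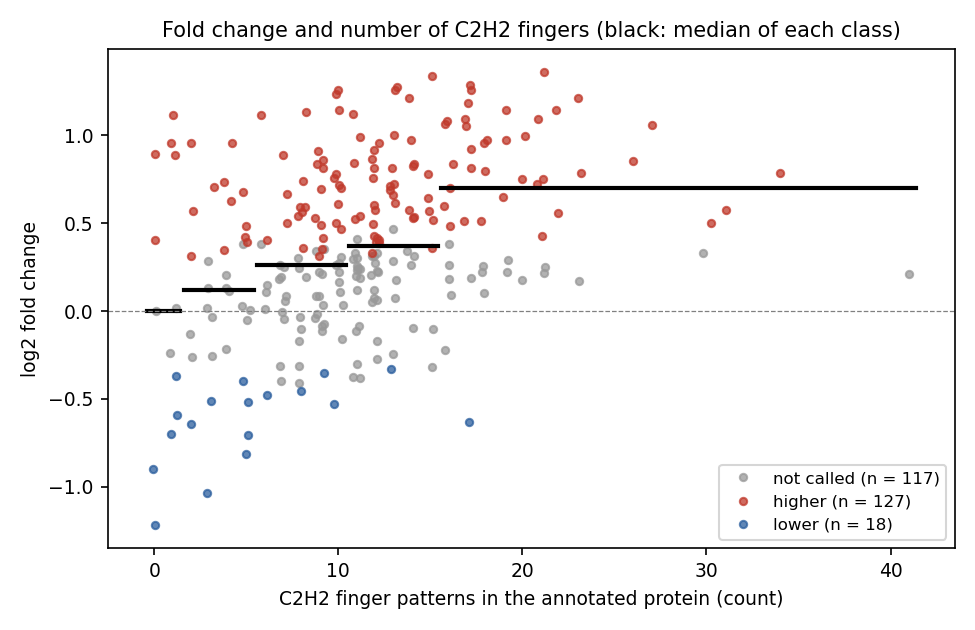
Log2 fold change of AAV9-hFNDC4 relative to AAV9-CTRL (vertical axis) against the number of C2H2 finger patterns in the annotated protein (horizontal axis, count, points spread slightly sideways), 1 point per member, coloured by call. Black lines mark class medians, which go from 0.00 at 0 to 1 patterns to 0.70 at 16 or more, and blue points of lower members gather at the left.

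Transcript length moved with the fold change in the whole table, and the members follow that trend from a higher level. Over 10225 genes of at least 5 CPM with an annotated transcript, Spearman's rho between length and log2 fold change was 0.47, and over 265 members it was 0.36. All genes of at least 5 CPM were put into 5 classes of equal size by length. In the class of shortest transcripts (up to 1808 bases) the 17 members had a median of -0.04 and other genes -0.44. In the next 3 classes the medians were 0.18 against -0.16 (47 members), 0.26 against -0.04 (70 members) and 0.38 against 0.12 (65 members). Among the longest (5141 bases and more) 49 of 66 members (74.2%) were higher and 0 lower, with a median of 0.56. Of the 1979 other genes in that class, 1012 (51.1%) were higher and 163 (8.24%) lower, with a median of 0.37.

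After a length trend was removed from each library, 109 members were higher and 17 lower, with a median of 0.31. Over all genes tested 21.6% were then higher and 21.7% lower, with a median of 0.03. A trend in GC content removed in the same way left 115 members higher and 21 lower, with a median of 0.32. All genes tested then had 24.4% higher and 22.9% lower, with a median of 0.05. The difference between the members' median and that of all genes went from 0.33 to 0.27 with either correction. With the length correction the class medians by finger number were -0.09, 0.07, 0.27, 0.33 and 0.64, and rho with finger number was 0.31. With the length correction the KRAB class kept a median of 0.38, and members without the pattern had 0.20. The GC correction left medians of 0.34 with the pattern (58 higher, 8 lower) and 0.28 without it (56 higher, 13 lower). The median GC content of transcripts was 42.0% with the pattern and 49.6% without it.

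**Figure D3:**
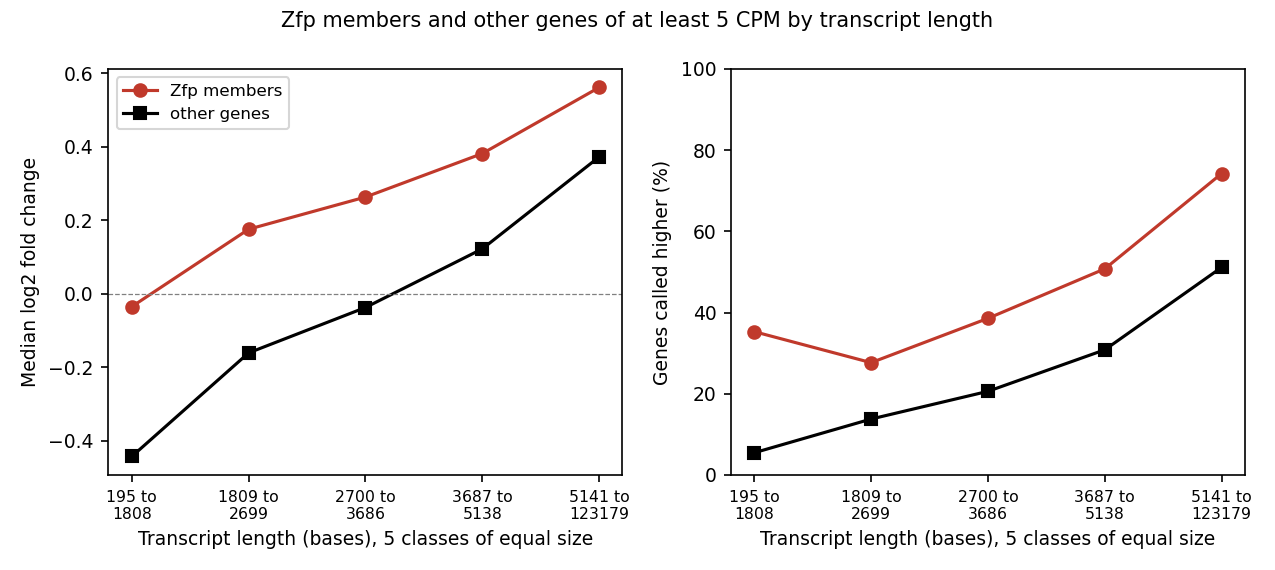
Left, median log2 fold change of Zfp members (red) and of other genes of at least 5 CPM (black) in 5 classes of transcript length of equal size (horizontal axis, bases); right, the share of each called higher (vertical axis, %). Members lie above other genes in all 5 classes on the left, from -0.04 against -0.44 to 0.56 against 0.37, and both sets go up with length.

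Zfp genes often sit side by side, and 106 members lay in 11 runs of at least 5 in which each gene started within 500 kb of the next (GENCODE positions, GRCm38). In these runs 64 of the 106 members were higher and 3 lower, where 48.1% and 6.77% of all members were. Of genes of at least 5 CPM 25.1% were higher and 28.3% lower. The run on chromosome 13 from 67121660 to 67792512 held 11 members, all with the KRAB pattern. Of these, 10 were higher, 4 of them by more than 2-fold (Zfp759, Zfp748, Zfp729a and Zfp493), and Zfp729b, with 41.0% of its exon bases shared with another gene, was not called at 0.33. The median of the run was 0.78, and 0.67 after the length correction.

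On chromosome 17, the run from 21008903 to 23599487 counted 11 higher and 0 lower of 22 members, with a median of 0.33. The run from 32765496 to 33631779 counted 7 and 0 of 12, with a median of 0.38. After the length correction these medians were 0.44 and 0.23. After the GC correction 12 of all 39 members on chromosome 17 were higher, where 20 were before. A run on chromosome 7 from 27689340 to 28380253 held 8 members, of which 6 were higher, and the member at its end, Zfp36, was lower. The run with the lowest median, 0.16, lay on chromosome 7 from 127233061 to 127885996, with 3 higher and 1 lower of 10. After the length correction the lowest median, 0.06, was that of the run on chromosome 9 from 20345136 to 20605409. It was 0.56 before. Which genes make up a run follows from the annotation, and no test was made between runs.

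Near neighbours can share reads. At least 10% of exon bases overlapped another gene in 37 members, and 21 members had at least 10% of their transcript at 97% identity or more to another gene's. In the 208 members with neither, 104 were higher and 14 lower, with a median of 0.35.

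Among members that act on RNA and ribosomes, 5 of 10 were lower and 1 was higher, where 28.3% and 25.1% of genes of at least 5 CPM were. After the GC correction 2 were lower and 0 higher, with a median of -0.18. Zfp36 encodes tristetraprolin, which uses CCCH fingers to bind AU-rich elements of short-lived mRNAs and recruits the CCR4-NOT deadenylase to them. It lay at 11.2, 12.5 and 10.9 CPM in AAV9-hFNDC4 and at 24.3, 30.7 and 25.6 CPM in AAV9-CTRL. All AAV9-hFNDC4 libraries were below all controls, with a log2 fold change of -1.22 (SE 0.14, adjusted p = 6.01e-05), the largest fall among members. Its protein held 2 CCCH and 0 C2H2 patterns.

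Zfp622, a factor of late 60S ribosomal subunit maturation, counted 82.8, 96.2 and 85.3 CPM in AAV9-hFNDC4 and 175, 176 and 190 CPM in AAV9-CTRL. The log2 fold change was -1.03 (SE 0.10, adjusted p = 2.97e-05), again without overlap. Zfp593, the homologue of a yeast protein of 60S export, had 14.6, 21.7 and 18.7 CPM against 25.5, 27.4 and 30.2 CPM. It fell by 0.59 (SE 0.15, adjusted p = 0.00762), but 64.2% of its exon bases overlap a gene on the other strand, and after the GC correction the adjusted p was 0.0511.

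Zfp385a, an RNA-binding partner of p53, had 27.1, 20.6 and 25.4 CPM against 36.1, 36.5 and 31.7 CPM, for a log2 fold change of -0.51 (SE 0.13, adjusted p = 0.00741). The call was lost with plain library totals, at -0.35 (adjusted p = 0.0584), and with the GC correction, at -0.30 (adjusted p = 0.0615). Zfp830, found with spliceosomes, stood at 11.8 ± 0.505 against 15.2 ± 0.775 CPM (mean ± SD, n = 3 each), a log2 fold change of -0.37 (adjusted p = 0.0442). That call was lost without any 1 of the 6 libraries, with adjusted p from 0.0632 to 0.167. It was also lost with upper-quartile factors, no low-count filter, plain library totals and the length and GC corrections (adjusted p 0.0687 to 0.577).

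Zfp638, which binds RNA and takes part in silencing foreign DNA, was the 1 higher member of the group, at 124 ± 8.04 against 99.7 ± 12.5 CPM (log2 fold change 0.31, adjusted p = 0.0442). The call was lost without AAV9-hFNDC4 replicate 1, 2 or 3 or AAV9-CTRL replicate 2 or 3 (adjusted p 0.0627, 0.115, 0.0945, 0.0978 and 0.111), with RLE factors (0.0530) and with the GC correction (0.27), and the length-corrected value was -0.11. Not called were Zfp598, the ubiquitin ligase of collided ribosomes (-0.26), Zfp326 (0.02), Zfp346 (0.03) and Zfp106 (0.02). Zfp598 passed the threshold only without AAV9-hFNDC4 replicate 2 or AAV9-CTRL replicate 2 (adjusted p 0.0341 and 0.0489). The median of the 10 was -0.31, and -0.16 with plain library totals, where 3 were lower. Leaving out single libraries left 4 or 5 lower.

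Other members with the largest falls lay outside that group. Zfp330, a nucleolar protein, had 62.2, 72.3 and 58.8 CPM in AAV9-hFNDC4 and 116, 109 and 136 CPM in AAV9-CTRL, a log2 fold change of -0.90 (SE 0.12, adjusted p = 0.000163). A near-identical copy covers 18.3% of its transcript. Zfp280b changed by -0.70 (SE 0.13) and Zfp35 by -0.63 (SE 0.17). Zfp428, with 17.0% of its exon bases shared, had a log2 fold change of -0.70 (adjusted p = 0.00585) and lost its call after the length correction, at -0.28 (adjusted p = 0.171).

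**Figure D4:**
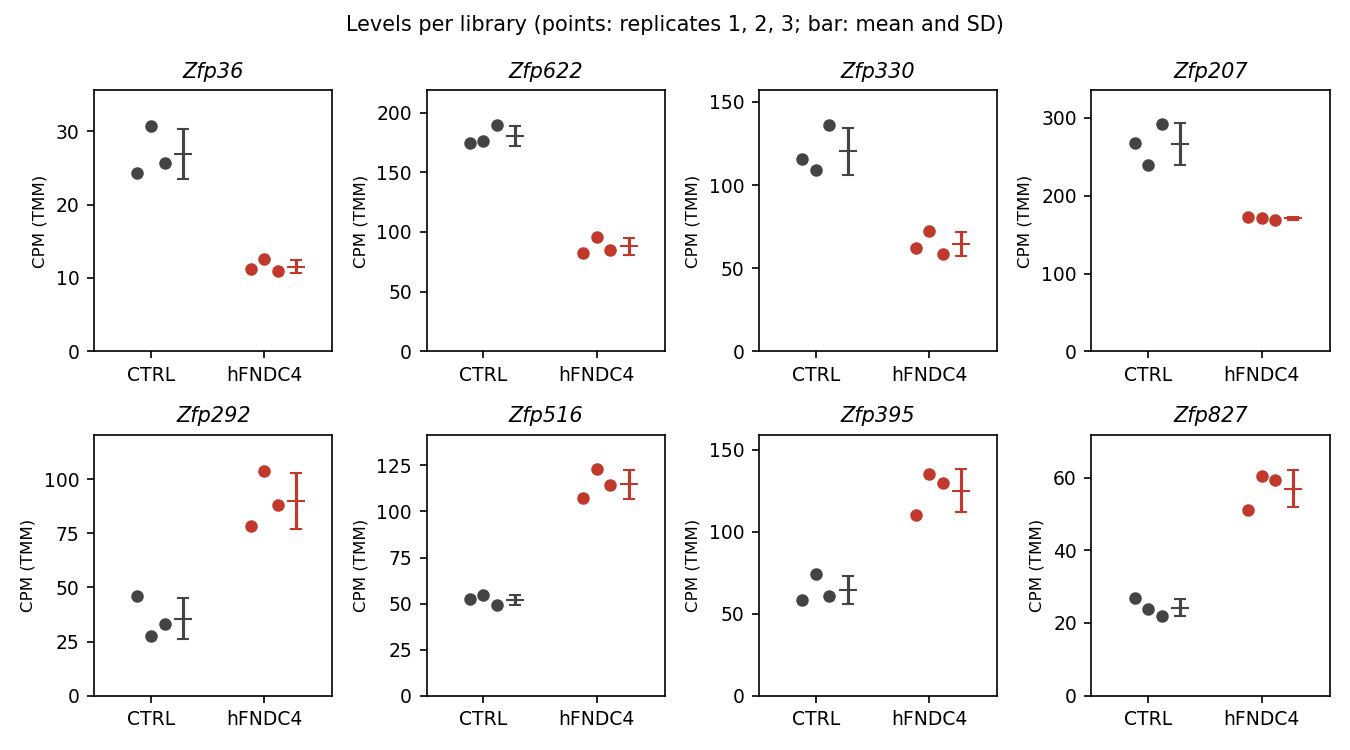
Level in CPM with TMM library sizes (vertical axes from 0) of 8 members in each library, points for replicates 1 to 3, bars for mean and SD, AAV9-CTRL in grey and AAV9-hFNDC4 in red. In the upper row (Zfp36, Zfp622, Zfp330, Zfp207) all AAV9-hFNDC4 points lie below the controls, and in the lower row (Zfp292, Zfp516, Zfp395, Zfp827) all lie above.

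Of 10 factors that bind promoters or organise the genome, 4 were higher and 1 was lower, with a median of 0.20. These shares are close to those of all members, of which 48.1% were higher and 6.77% lower. Of genes of at least 5 CPM 25.1% and 28.3% were. Without AAV9-CTRL replicate 2, 3 were lower and the median was 0.07, and after the length correction 3 were higher and 2 lower, with a median of 0.08. Zfp292, a large DNA-binding protein with 15 finger patterns, stood at 78.3, 104 and 87.9 CPM in AAV9-hFNDC4 and at 46.2, 27.6 and 32.9 CPM in AAV9-CTRL. The log2 fold change was 1.34 (SE 0.18, adjusted p = 0.000148), and 0.89 after the length correction, as its transcript has 9986 bases. Zfp639 had 40.7, 49.7 and 42.9 CPM against 24.3, 26.5 and 24.9 CPM, for a log2 fold change of 0.82 (SE 0.12, adjusted p = 0.000231). In both genes the groups were apart.

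Zfp462, a regulator of heterochromatin with 34 finger patterns, had a log2 fold change of 0.78 (SE 0.16, adjusted p = 0.00196), which the length correction brought to 0.32 (adjusted p = 0.0482). Zfp148, which binds GC-rich promoters, was at 75.3 ± 3.24 against 48.8 ± 4.61 CPM, with a log2 fold change of 0.62 (adjusted p = 0.000792). After the length correction it was not called, at 0.17 (adjusted p = 0.159).

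Zfp410, an activator known for driving the Chd4 gene through clusters of its motif there, was the lower one. It had 23.7, 23.2 and 20.7 CPM against 38.4, 40.3 and 39.9 CPM, for a log2 fold change of -0.81 (SE 0.11, adjusted p = 0.000172). Chd4, looked up after this value was seen, had 411 ± 49.6 against 373 ± 28.2 CPM (log2 fold change 0.14, adjusted p = 0.351). Not called were Zfp143 (0.26), Zfp281 (0.13), Zfp384 (-0.31), Zfp263 (-0.11) and Zfp335 (-0.25). Zfp143 passed the threshold with plain library totals (adjusted p = 0.0355) and Zfp335 after the length correction (0.0391). Another gene overlaps 29.2% of the exon bases of Zfp335, and a near-identical copy covers 22.0% of the Zfp384 transcript. Without AAV9-CTRL replicate 2, Zfp384 and Zfp335 passed the threshold (adjusted p 0.0119 and 0.0115).

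Of 9 members that act in signalling, ubiquitin transfer or cell lineage, 7 were higher and 1 was lower, with a median of 0.41. Without AAV9-CTRL replicate 3, 5 were higher. Of all members 48.1% were higher and 6.77% lower, and of genes of at least 5 CPM 25.1% and 28.3%. The difference from all members was not tested. Zfp516, a brown fat factor that activates Ucp1, stood at 107, 123 and 114 CPM in AAV9-hFNDC4 and at 52.3, 54.6 and 49.1 CPM in AAV9-CTRL. All AAV9-hFNDC4 values were above all controls, with a log2 fold change of 1.14 (SE 0.10, adjusted p = 2.02e-05). Zfp395, a DNA-binding protein induced by hypoxia, had 110, 135 and 130 CPM against 58.3, 74.1 and 60.9 CPM, for a log2 fold change of 0.96 (SE 0.13, adjusted p = 0.000136).

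Zfp318, a nuclear factor needed for IgD expression in B cells, had 30.1, 29.2 and 34.5 CPM against 19.0, 15.1 and 14.2 CPM. The log2 fold change was 0.96 (SE 0.14, adjusted p = 0.000275), and 0.43 after the length correction. Zfp217, a transcriptional repressor amplified in breast cancer, had a log2 fold change of 0.59 (adjusted p = 0.00474), and 0.39 after the length correction. Of the 2 paralogous corepressors of the NET family, Zfp703 was higher with a log2 fold change of 0.41 (adjusted p = 0.00794), and 0.61 after the GC correction, and Zfp503 was at 27.6 ± 1.71 against 27.6 ± 2.04 CPM. The contrast between these paralogues was not tested, and 13.8% of the exon bases of Zfp703 overlap another gene.

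Zfp91, a ubiquitin ligase of non-canonical NF-kB signalling, had 170, 197 and 165 CPM against 140, 138 and 128 CPM, for a log2 fold change of 0.39 (adjusted p = 0.00958). The call was lost without AAV9-CTRL replicate 3 (adjusted p = 0.0546) and after the length correction (0.114). Zfp746, the parkin substrate PARIS, had a log2 fold change of 0.34 (adjusted p = 0.0141), and 0.52 after the GC correction, and lost its call without AAV9-hFNDC4 replicate 3 or AAV9-CTRL replicate 3 (adjusted p 0.0615 and 0.0605). The lower member on this list was Zfp207, at 172, 172 and 168 CPM against 268, 239 and 292 CPM. Its log2 fold change was -0.64 (SE 0.10, adjusted p = 0.000467). Zfp207 is a kinetochore and splicing protein, so its place on this list rather than with RNA is open to question. The only lower call of the list rests on that choice.

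Of the 4 KRAB proteins known for imprints or retroelements, 1 was called. Zfp932, a repressor of endogenous retroviruses, had 40.8, 42.1 and 38.9 CPM against 27.9, 26.3 and 23.7 CPM, for a log2 fold change of 0.64 (SE 0.11, adjusted p = 0.000757). After the GC correction it was 0.41. Since 70.1% of its transcript is near-identical to Gm15446, how its reads were assigned is uncertain. Zfp445, a guardian of imprints, was at 177 ± 17.9 against 151 ± 9.71 CPM (log2 fold change 0.23, adjusted p = 0.101), and passed the threshold with upper-quartile factors (0.0329) and plain library totals (0.00942). Zfp809, a repressor of murine leukaemia virus, had a value of 0.06.

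Zfp568, the repressor of a fetal Igf2 promoter, had 32.6, 39.2 and 32.7 CPM against 52.7, 36 and 47.2 CPM, so that the groups overlapped. Its log2 fold change was -0.38 (adjusted p = 0.0522). It passed the threshold with DESeq2 (0.045), no low-count filter (0.022) and the GC correction (0.0369), and without AAV9-hFNDC4 replicate 2 or AAV9-CTRL replicate 2 (adjusted p 0.0355 and 0.00452), and after the length correction the value was -0.68 (adjusted p = 0.00166). Zfp57, Zfp365, Zfp423, Zfp473 and Zfp521, on the same role lists, were under 5 CPM and are not members.

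The 8 largest rises had log2 fold changes from 1.23 to 1.36. Of these 5 had the KRAB pattern, as had 128 of the 262 members with a coding sequence. Zfp759 led with 1.36 (SE 0.28, adjusted p = 0.00192). It lay at 8.52, 8.78 and 8.09 CPM in AAV9-hFNDC4 and at 4.69, 3.22 and 1.97 CPM in AAV9-CTRL. Its AAV9-CTRL mean, 3.29 CPM, was under the 5 CPM minimum, which it met only through its level in AAV9-hFNDC4. Zfp799, from one of the runs on chromosome 17, had 29.0, 27.7 and 28.7 CPM against 11.9, 14.0 and 9.81 CPM, for a log2 fold change of 1.26 (SE 0.15, adjusted p = 6.64e-05). Its neighbours Zfp563 and Zfp763 both had 1.26 (SE 0.22 each).

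The others were Zfp607b (1.29, SE 0.20), Zfp292, Zfp467 and Zfp827. Zfp467, which steers marrow progenitors towards fat cells, had 8.95, 7.40 and 11 CPM against 2.43, 5.77 and 3.14 CPM. The log2 fold change was 1.27 (SE 0.30, adjusted p = 0.00453). With an AAV9-CTRL mean of 3.78 CPM, it too met the 5 CPM minimum only through AAV9-hFNDC4. Zfp827, which brings the NuRD remodelling complex to telomeres, had 51.1, 60.4 and 59.3 CPM against 26.8, 23.9 and 22.0 CPM, for a log2 fold change of 1.23 (SE 0.12, adjusted p = 2.96e-05). Groups that do not overlap were a condition for naming these 8 genes and those with the largest falls.

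Of the 5 members with the highest levels, Zfp207 was lower, Zfp871 was higher and 3 were not called. Zfp106 was at 280 ± 10.4 against 277 ± 69.8 CPM, with AAV9-CTRL replicate 2 at 356 CPM and the other controls at 248 and 226 CPM, and 28.8% of its exon bases overlap another gene. Zfp740 was at 235 ± 3.37 against 214 ± 11 CPM (log2 fold change 0.13, adjusted p = 0.274, and 0.0241 with plain library totals). Zfp706 was at 177 ± 7.11 against 210 ± 3.01 CPM, for a log2 fold change of -0.24 (adjusted p = 0.0525). It passed the threshold in 5 alternatives (adjusted p 0.0082 to 0.0487), and 11.2% of its transcript has a near-identical copy.
Zfp871 was called higher at 0.36 (adjusted p = 0.0249). The call was lost without AAV9-hFNDC4 replicate 2 or 3 or AAV9-CTRL replicate 3 (adjusted p 0.0808, 0.0523 and 0.126), and the values after the length and GC corrections were -0.13 (adjusted p = 0.248) and 0.19 (0.142). CPM is not per length, so these levels rank reads and not molecules.

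The partners of KRAB proteins were called in both directions. Of 23 corepressor and heterochromatin genes tested, all of at least 5 CPM, 4 (17.4%) were higher and 3 (13.0%) lower, with a median of 0.12, where 25.1% and 28.3% of genes of at least 5 CPM were. With plain library totals 8 were higher and 2 lower, with upper-quartile factors 6 were higher, and after the length correction 2 were higher and 3 lower, with a median of -0.02. Without AAV9-CTRL replicate 2 the counts were 6 and 4, and without replicate 3 of either group 3 and 2. Trim28, the corepressor that binds the KRAB box, was at 215 ± 19.5 against 356 ± 23.6 CPM, for a log2 fold change of -0.73 (SE 0.11, adjusted p = 0.000274). The histone deacetylase Hdac2 was also lower (-0.47), and Atf7ip (0.64) and Chd3 (0.46) were higher, the last pair not after the length correction (0.26 and 0.13).

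Of 18 genes of the ZFP36 family and the CCR4-NOT machinery that it recruits, 4 were higher and 4 lower, or 22.2% in each direction where 25.1% and 28.3% of genes of at least 5 CPM were called. The median was -0.06 and turned to 0.10 with plain library totals. Higher genes numbered 2 without AAV9-hFNDC4 replicate 2 or 3 or AAV9-CTRL replicate 3, 2 after the GC correction and 1 after the length correction, and lower genes 4 in each of these. Within the family, Zfp36l3 stood at 0.708 ± 0.189 against 9.90 ± 2.65 CPM (log2 fold change -3.80, adjusted p = 1.04e-05) and Zfp36l1 at 27.2 ± 1.05 against 52.8 ± 7.02 CPM (-0.96, adjusted p = 0.000125). Zfp36l2, named after its value was seen, was at 246 ± 12.1 against 239 ± 15.7 CPM (adjusted p = 0.761). Tob1, an adaptor between RNA-binding proteins and the deadenylase, changed by -0.93, and Cnot6l, a catalytic subunit, by 1.03.

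Not all calls for the members held in every fit. In all 17 fits, the main one and 16 alternatives, 77 of the 128 higher members and 8 of the 18 lower members kept their call. Most of the lower calls were thus lost in at least 1 fit. The same count over all genes is not given here. No member was called in the opposite direction in any fit. Without AAV9-hFNDC4 replicate 3 the lower members numbered 11, without AAV9-hFNDC4 replicate 1 they numbered 12, and without any other single library 13 to 22. Higher members numbered 96 to 137 when 1 library was left out.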

How the data were processed

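The authors deposited 1 table, with unnormalized read counts for each gene symbol in each library. Per the submitters' processing notes, fastp, HISAT2, HTSeq, R 3.2.0 and DESeq2 were used with GRCm38. The sources used here give no parameters, annotation release or strand setting, so reads of overlapping genes on opposite strands cannot be told apart. Members were selected on mean plain CPM over all 6 libraries, so a member can be under 5 CPM in 1 group. Members, lists and tests were chosen with earlier results of these data known.

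Counts were tested in R 4.3.3 with edgeR 4.0.16 (filterByExpr, TMM, robust quasi-likelihood F test), 3 libraries against 3, with Benjamini-Hochberg adjustment over 14663 genes and a threshold of 0.05. CPM per library and group use TMM library sizes. The SE is the log2 fold change divided by the square root of F. On simulated counts for 14351 genes the test recovered 84% of 2-fold and 37% of 1.5-fold changes and called 0.092% of unchanged genes. Alternatives used other scalings and filters, DESeq2 1.42.0, limma 3.58.1 (voom), a replicate block, length and GC corrections (loess span 0.4), single libraries left out and member minimums of 1 and 10 CPM; plain library totals were added after seeing the data.

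Gene models came from GENCODE vM21, with 265 of 266 members matched. Finger and KRAB patterns were sought in its translated coding sequences rather than the RefSeq proteins first planned. A C2H2 pattern is 2 cysteines 2 to 4 residues apart, 12 residues, then a histidine and a histidine or cysteine 3 to 5 residues apart. The KRAB pattern needs 9 of 14 conserved positions. Near-identical transcripts were found with BLAST+ 2.17.0. Other scripts ran in Python 3.11.15. Genes named were, per direction, the 8 members with the largest called change and groups apart, the 5 highest, those on 4 role lists, and up to 4 of each other list with the smallest p.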

Additional observations from a re-analysis of the deposited data

How the results depend on the processing

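Under other scalings, filters and tools (RLE, upper-quartile factors, no filter, 1 CPM in 3 libraries, DESeq2, limma-voom) and member minimums of 1 and 10 CPM, the counts of higher and lower members stayed within 1.5 times 128 and 18. With plain library totals the lower members numbered 11 and the median was 0.50. With 1 library left out, higher members ranged from 96 to 137, lower from 11 to 22 and the median from 0.31 to 0.43. The deviations of same-numbered libraries correlated at -0.087, -0.202 and -0.059, and those of other pairs at -0.064 to 0.131. With 3 libraries a group, such values gave no sign of a pairing by replicate number but cannot exclude it. With the replicate block 107 members were higher and 13 lower, with a median of 0.35, and Zfp871, Zfp638, Zfp830 and Zfp746 were not called. Of 752 values for the 47 named members, 673 kept direction and side of the threshold, 35 lost and 20 gained a call and 24 changed sign. The sign changes were, after the length correction, Zfp106 -0.42, Zfp871 -0.13, Zfp638 -0.11, Zfp281 -0.018 and Zfp445 -0.020; after the GC correction, Zfp326 -0.055 and Zfp503 0.20; with plain totals, Zfp263 0.044 and Zfp503 0.16. Zfp503, near 0 throughout, also gave 0.055 (upper quartile), 0.014 (no filter), 0.0013 (limma-voom) and 0.0005 (replicate block). Leaving out 1 library gave -0.11 to 0.24 for Zfp106, -0.015 to 0.068 for Zfp346, -0.25 to 0.041 for Zfp263, -0.057 to 0.051 for Zfp503 and -0.10 to 0.22 for Zfp809. The causes were not tested. Depth was alike in all libraries. On simulated counts the test recovered 37% of 1.5-fold changes, while in these data Zfp638 (1.24-fold) and Zfp703 (1.33-fold) were called. How far the simulated recovery carries over to these data was not tested.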

Other observations

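Of 78 Zfp symbols below the 5 CPM minimum that were tested, 22 (28.2%) were higher and 3 (3.85%) lower, with a median log2 fold change of 0.46. Of the 4193 genes tested under 5 CPM, 14.7% were higher and 16.8% lower, with a median of 0.14. Higher ones numbered 10 without AAV9-CTRL replicate 3, 11 without AAV9-hFNDC4 replicate 1 and 16 to 20 without any other single library. The 3 lower ones, named after their values were seen, were Zfp296, at 0.857 ± 0.391 CPM in AAV9-hFNDC4 and 4.76 ± 1.64 CPM in AAV9-CTRL (mean ± SD, n = 3 each), Zfp853, at 0.118 ± 0.033 and 0.683 ± 0.346 CPM, and Zfp663, at 0 in all 3 AAV9-hFNDC4 libraries and 0.945 ± 0.299 CPM in AAV9-CTRL.

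Other zinc finger families of at least 5 CPM were also counted, and 25.1% of all genes of that level were higher and 28.3% lower. Of 34 Zbtb genes, whose proteins join fingers to a BTB dimerization domain, 14 (41.2%) were higher and 3 (8.82%) lower with a median of 0.26. After the length correction 14 were higher and 6 lower (median 0.15), and the median with plain library totals was 0.42. Their values included Zbtb7c at 1.16, Zbtb25 at 0.98, Zbtb7b at 0.71 and Zbtb22 at 0.74. Of 14 Zkscan and Zscan genes, whose proteins carry a SCAN domain, 8 (57.1%) were higher and 1 (7.14%) lower with a median of 0.39, and 2 were lower after the length correction or without AAV9-CTRL replicate 2. Their values included Zkscan7 at 1.42, Zkscan8 at 1.34, Zkscan1 at 0.67 and Zkscan5 at -0.75. Of 14 Klf and Sp genes, factors with C-terminal fingers that bind GC boxes, 9 (64.3%) were higher and 3 (21.4%) lower with a median of 0.62. Their values included Klf9 at 1.43, Klf7 at 1.37, Klf15 at 1.25 and Sp1 at 0.84. None of these families was tested against the Zfp members.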
